A study of Mus musculus with 16 samples.

Results

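The genotype by oxygen interaction asks of each gene whether its difference between physioxia and ambient air was unlike in Tet2-deficient and in wild-type (WT) mouse marrow progenitors. It was calculated as Tet2-deficient physioxia minus Tet2-deficient air, less WT physioxia minus WT air, on group means of log2(normalized count + 1). All 6288 of the 6288 deposited genes and all 16 of the 16 libraries entered, and 6110 genes had enough reads to be tested. A negative value means that physioxia minus air was greater in WT than in Tet2-deficient cells, and a positive value the reverse.

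TET2 is a dioxygenase that needs molecular oxygen, iron and 2-oxoglutarate to oxidise 5-methylcytosine in DNA, and its loss of function is frequent in clonal haematopoiesis and myeloid malignancy. Bone marrow is a low-oxygen tissue, in which prolyl hydroxylases of the same enzyme class mark hypoxia-inducible factor (HIF) subunits for destruction when oxygen is plentiful. Harvest of marrow in room air therefore moves stem and progenitor cells to far more oxygen than they meet in the animal, a shift known as extraphysiologic oxygen shock.

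The 4 groups held 4 libraries each, labelled as matched biological replicates. The labels say that the enriched cells were divided between air and physioxia, but not that a replicate number marks shared cells. All came from C57Bl/6J-strain WT or Tet2-/- mice aged 3 to 4 months, of both sexes. Every marrow was flushed and enriched for lineage-negative Kit+ Sca1+ (LSK) cells inside a chamber held at 3% oxygen, so the air groups also began in low oxygen. The physioxia groups stayed in the chamber until RNA was extracted, and the air groups were moved to about 21% oxygen for 6 hours first. Below, a rise or fall names the value in physioxia against air, not the order of handling. No holding time was recorded here for the physioxia groups, and the part of time in the oxygen differences was not tested. The labels name no Cre driver or promoter for the Tet2 deletion, and they do not say whether a library pooled several mice.

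Libraries held between 7.77 and 15.7 M reads over the deposited genes. WT physioxia replicate 2 stood apart. Its normalized counts summed to 14.5 M against 10.6 to 12.2 M in the other 15 libraries, and its 10 most abundant genes took 20.3% of reads against 12.3% to 17.3%. The longest 20% of its protein-coding transcripts were also low against the shortest 20%, at -1.02 on a centred log2 scale, where the others lay between -0.21 and 0.30. Values without it are given beside the results it moves most. Of 8 LSK markers, Hlf, Kit, Procr and Mycn were in the table, and none of them was at 0 in any library. Markers of other lineages were present too, and none of those in the table was at 0 in any library: 7 of 7 erythroid, 5 of 6 neutrophil, 5 of 5 T and NK cell, 5 of 5 basophil and mast cell, 3 of 5 monocyte, 3 of 3 megakaryocyte and 1 of 4 B cell genes. Summed erythroid markers ranged from 10033 to 15097 normalized counts for WT in air and from 13688 to 24332 for WT in physioxia, while the Tet2-deficient ranges were 27870.3 to 122183 (air) and 30143 to 101991 (physioxia). Summed neutrophil markers were 1428 to 6055 (air) and 3908 to 7787 (physioxia) for WT, and 412 to 963 (air) and 764 to 1386 (physioxia) for Tet2-deficient libraries. In bulk samples such as these, fewer cells of a type and less RNA per cell cannot be told apart, and the part of cell mixture in the interactions below was not tested.

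Tet2 itself, the targeted gene, was at 993, 650, 962 and 813 normalized counts in WT air replicates 1 to 4 and at 782, 592, 812 and 739 in WT physioxia. In Tet2-deficient libraries it was at 626, 564, 519 and 506 in air and at 489, 447, 463 and 529.7 in physioxia. Reads on the gene were thus fewer in the deficient cells but not absent, and the table does not say which exons they came from. Its oxygen difference was -0.22 ± 0.14 (log2, SE) for WT and -0.20 ± 0.14 for Tet2-deficient cells, and the interaction was 0.02 with a 95% interval from -0.41 to 0.45. Leaving out any 1 of 6 libraries turned its sign, so no direction is given to it.

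No gene passed the interaction test. Of the 6110 tested genes 0 (0%) had a Benjamini-Hochberg adjusted p under 0.05 in limma, and the smallest adjusted p was 0.552. At an unadjusted p under 0.05 there were 546 genes (8.94%), of which 217 (3.55%) were positive and 329 (5.38%) negative. This share describes a chosen set of genes, since the smallest of 4 pairwise DESeq2 p-values, from a shared-dispersion fit, was under 0.05 for 98.3% of the deposited genes, and for 4765 of them only in a comparison of genotypes. Without WT physioxia replicate 2 the unadjusted number was 389, without Tet2-deficient air replicate 4 it was 391, and without WT physioxia replicate 4 it was 879. edgeR's quasi-likelihood test on recovered whole reads called 0 genes with 606 at an unadjusted p under 0.05, whereas DESeq2 called 8, all negative. The 8 are described below.

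Interactions were spread more widely on the negative side. The 1st and 5th percentiles over tested genes were -1.84 and -1.12 on the log2 scale, and the 95th and 99th were 0.76 and 1.51, around a median of -0.02. Values below -1 were found for 383 genes (6.27%) and values above 1 for 183 (3%). The median SE of an interaction was 0.30, which gives a 95% interval of about 0.64 to either side. For 3278 genes (53.6%) the whole interval lay within 1 log2 unit of 0, so a difference between genotypes above that size was outside the interval there; for the remaining genes the interval reached beyond it.

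Both components of the interaction are shown in the plot of WT against Tet2-deficient oxygen differences. In WT, 352 genes (5.76%) changed at an adjusted p under 0.05, with 300 (4.91%) higher and 52 (0.851%) lower in physioxia. In Tet2-deficient cells 0 (0%) passed, with 280 (4.58%) at an unadjusted p under 0.05 and a smallest adjusted p of 0.194. Over tested genes the log2 difference had an SD of 0.59 for WT and 0.33 for Tet2-deficient cells. Passing in WT and not in Tet2-deficient cells does not show that a gene differed between them, which is what the interaction tests. The WT number was 165 without WT physioxia replicate 2 and 554 without WT physioxia replicate 4, and it was 126, 228, 151 and 127 without WT physioxia replicate 1, WT physioxia replicate 3, WT air replicate 2 and WT air replicate 4.

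**Figure D1:**
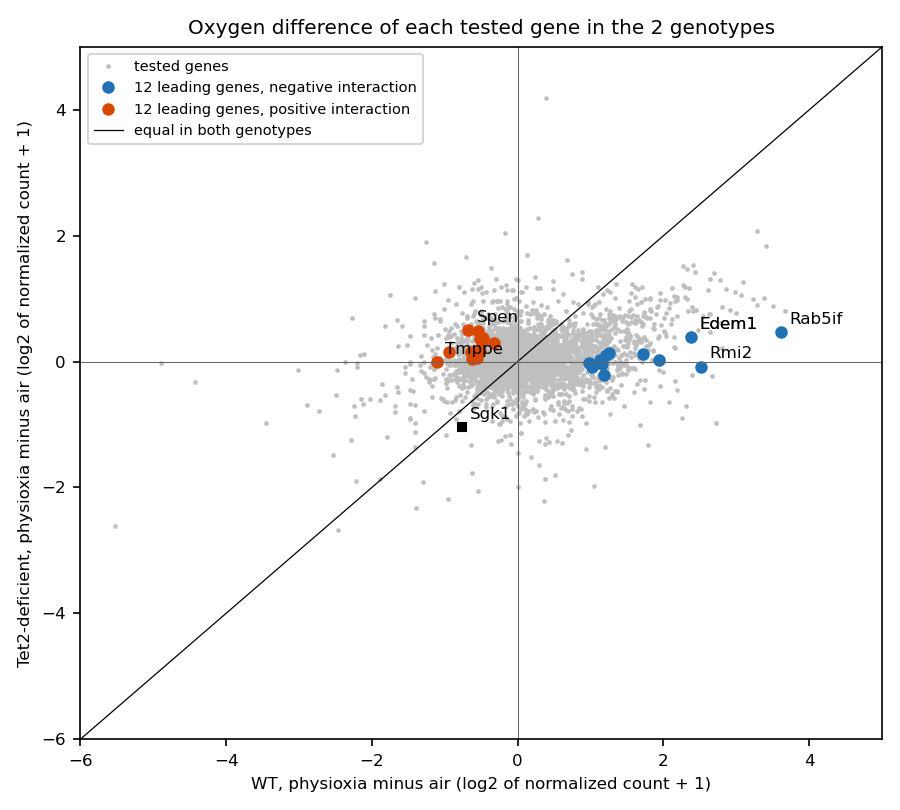
Log2 difference between physioxia and air in WT (horizontal) and in Tet2-deficient cells (vertical) for the 6110 tested genes, with the 12 genes of smallest interaction p in each direction in colour and Sgk1 as a black square. The cloud is wider along the WT axis (SD 0.59) than along the Tet2-deficient axis (SD 0.33), and the blue genes lie near 0 on the vertical axis.

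The 2 genotypes nevertheless mostly leaned the same way for genes that changed in WT. Among the 300 genes higher in WT physioxia the WT difference had a median of 1.40 and the Tet2-deficient one of 0.40 (quartiles 0.14 and 0.72). The Tet2-deficient difference was positive for 255 of the 300 (85%), against 49.1% of all tested genes. Of the 52 genes lower in WT physioxia, 44 (84.6%) were also below 0 in Tet2-deficient cells, with medians of -0.89 in WT and -0.24 in Tet2-deficient cells. The genes were chosen on the WT difference, so a smaller size in the other genotype is partly a result of that choice and is given as a description. For 235 of the 300 the mean of Tet2-deficient air lay between the WT air and WT physioxia means, and for 162 so did the mean of Tet2-deficient physioxia. The 300 were chosen for WT means that lie apart, which leaves more room between them. The share over all tested genes was not calculated, so nothing is read from these 2 counts. Across all tested genes the WT and Tet2-deficient differences had a Pearson correlation of 0.26 and a Spearman correlation of 0.10. Genes within a library are not independent replicates, so this is a description.

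The genes named next are the 12 in each direction with the smallest limma interaction p among well-expressed genes, and each missed the adjusted threshold at 0.552. The negative ones shared a shape: they were low in WT air and high in WT physioxia, and for all 12 both Tet2-deficient means were above that of WT air. Averaged over the 12, log2 levels were 8.34 to 9.21 across WT air libraries and 9.72 to 10.74 across WT physioxia. The Tet2-deficient libraries ran from 9.48 to 10.69 in air and from 10.02 to 10.46 in physioxia. All 12 rose in WT (adjusted p 0.00955 to 0.0253), as did 4.91% of all tested genes. In Tet2-deficient cells 0 of 12 passed (0% of all tested genes). The WT groups did not overlap for 11 of the 12 (11% of all tested genes) and the Tet2-deficient groups overlapped for all 12 (they did not for 3.75% of tested genes). The rule used these values, so nothing is read from any of these counts or from the shared shape. Without WT physioxia replicate 2 the WT rise passed for 11 of 12, all but Setd6 (adjusted p 0.0888). In that run 138 of 6090 tested genes were called higher in WT physioxia. The 12 genes were chosen on values that this run shares, so nothing is read from this count either.

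Edem1 had the smallest p of all. It encodes a lectin of the endoplasmic reticulum that sends misfolded glycoproteins for degradation, and it lies at chr6:108828641-108859356 (GRCm38, plus strand). Its normalized counts in WT were 641, 601, 1009.8 and 547 in air and 4986, 5157, 3491 and 1772 in physioxia. In Tet2-deficient libraries they were 1422, 1695, 2071 and 3651 in air and 2497, 2309.5, 2681 and 3511 in physioxia. Every WT physioxia library was above every WT air library, while the Tet2-deficient groups overlapped because air replicate 4 exceeded all 4 physioxia libraries. The rise was 2.38 ± 0.33 in WT (adjusted p 0.00955), the Tet2-deficient difference was 0.39 ± 0.33, and the interaction was -1.99 ± 0.46 (95% interval -2.97 to -1.01). Without WT physioxia replicate 2 the interaction was -1.81.

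Rab5if, a small membrane protein named for its binding to RAB5, had the most negative value of the 12. It lies at chr2:156863128-156873563 on the plus strand. WT air held 179.8, 233, 747 and 189 normalized counts and WT physioxia 4059, 7589, 3107 and 1388. Tet2-deficient air ranged from 741 in replicate 1 to 4379 in replicate 4, a wider range than that of Tet2-deficient physioxia, which held 2214, 1789, 2324 and 3149.7. The interaction was -3.14 ± 0.82 (95% interval -4.88 to -1.40), made of a WT rise of 3.61 ± 0.58 and a Tet2-deficient difference of 0.47 ± 0.58.

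Pcgf6, a subunit of a variant Polycomb repressive complex (chr19:47033617-47050906, minus strand), was at 172, 144, 235 and 108 normalized counts in WT air and at 709, 902, 652 and 337 in WT physioxia. Its Tet2-deficient values were 261, 602, 644 and 930.3 in air and 621, 479.6, 559 and 591 in physioxia, so both extremes of that genotype were air libraries. The interaction was -1.93 ± 0.49, from a WT rise of 1.94 ± 0.35 and a Tet2-deficient difference of 0.02 ± 0.35. Rmi2, which works with the BLM helicase to dissolve recombination intermediates, was at 31.7 to 82.6 in WT air and 132 to 568 in WT physioxia. Its Tet2-deficient air values ran from 112 to 702, which enclosed the physioxia range of 161 to 324, and the interaction was -2.59 ± 0.74. Setd6, a lysine methyltransferase, had an interaction of -1.40 ± 0.41.

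Sympk, the scaffold symplekin of messenger RNA cleavage and polyadenylation, was at 385, 458, 701 and 451 normalized counts in WT air and at 1241, 619, 1095 and 1122 in WT physioxia. Unlike those of the other leading negative genes, its Tet2-deficient libraries were all far above both WT groups, at 2948 to 4568 in air and 3127 to 4462 in physioxia. Its interaction was -1.11 ± 0.31. Kctd5, an adaptor of cullin ubiquitin ligases, gave -1.12 ± 0.30, and it was at 552, 675, 1221 and 509.9 in WT air. Air replicate 3 was the library nearest to the physioxia values of 1487 to 2041, and without it the Kctd5 interaction was -1.39 ± 0.20 with an adjusted p of 0.0271. Ppp2r5e, a regulatory subunit of a protein phosphatase, had an interaction of -1.60 ± 0.45, and Ranbp17, a nuclear transport receptor, -1.21 ± 0.35.

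Plekhf2, an endosomal phosphoinositide-binding protein, had group means of 3108 ± 802 (SD, n = 4) in WT air and 7236 ± 1939 in WT physioxia. Its Tet2-deficient means were 3652 ± 927 and 3865 ± 417, and the interaction was -1.10 ± 0.30. Hccs, which attaches haem to cytochrome c, gave -1.10 ± 0.32. Sumf1, which activates sulfatases in the endoplasmic reticulum, gave -1 ± 0.29, with Tet2-deficient means of 1417 ± 168 in air and 1394 ± 62 in physioxia. Library order recurred across the 12 genes. WT air replicate 3 was the highest WT air library for 10 of them, WT physioxia replicate 4 the lowest of its group for 11, and Tet2-deficient air replicate 1 the lowest of its group for 11. Replicate 4 was the highest Tet2-deficient air library for 7. The shares over all tested genes were not calculated and the rule used these values, so nothing is read from these orders.

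**Figure D2:**
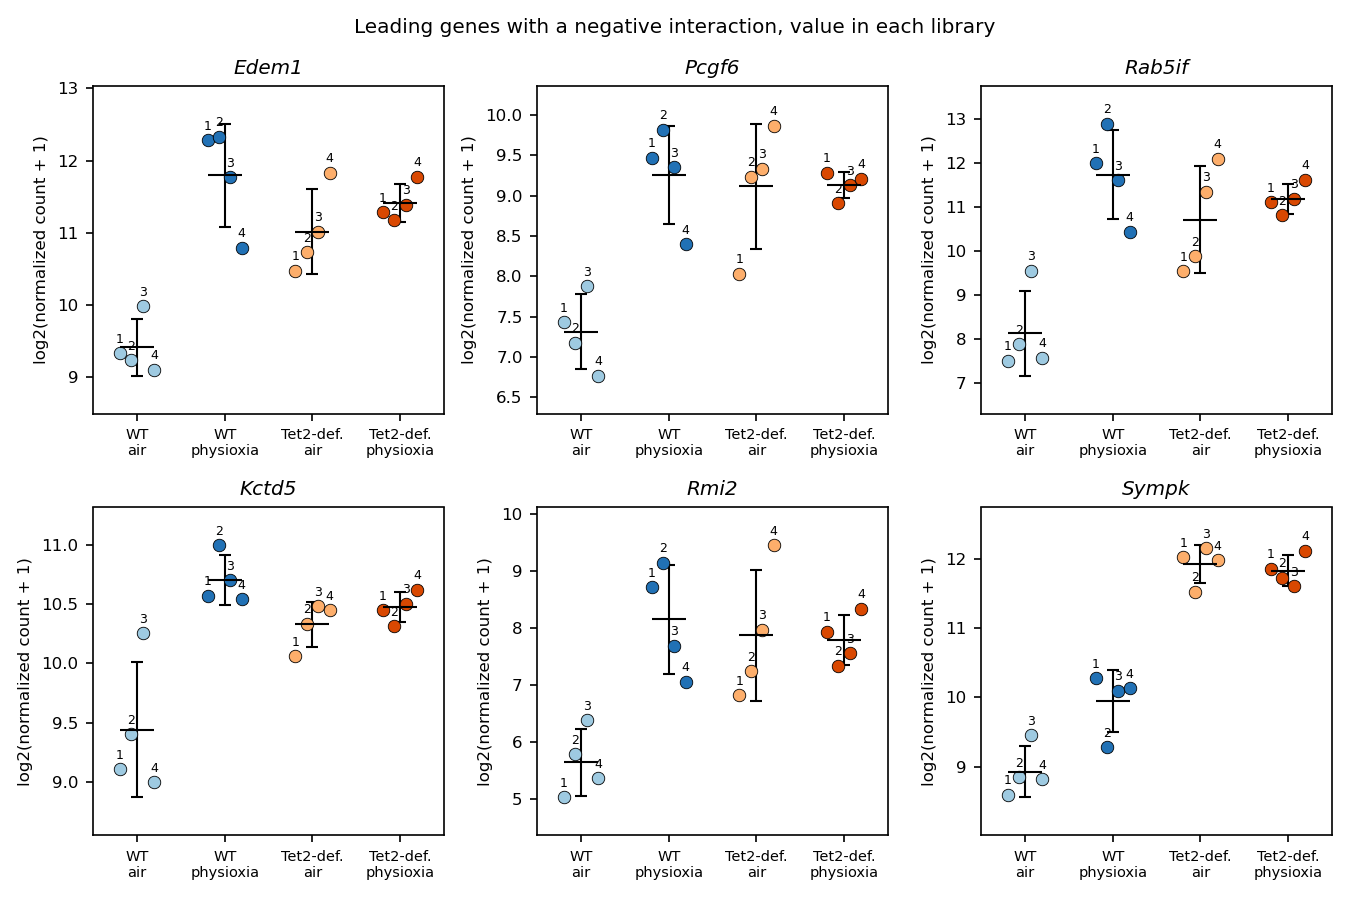
Log2(normalized count + 1) in each library (points, with replicate numbers) for 6 genes with a negative interaction; bars are the group mean and SD of 4 libraries. WT air has the lowest mean in each panel, and the Tet2-deficient libraries overlap the WT physioxia range for 5 of the 6 genes and lie above it for Sympk.

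The promoters of these genes were read for ACGTG on either strand, a form of the core of the HIF-binding hypoxia response element. Windows ran from 250 bases before to 50 after the start site (RefSeq, GRCm38.p6). Other forms of the core were not searched, and "the core" below means ACGTG only. Of the 9 negative genes with a promoter in that table, 4 held the core, against 25.3% of the 4392 tested genes with a promoter and 19.7% of all 27025 promoters. One of the 9 positive genes with a promoter did. Among genes higher in WT physioxia it was 60 of 231 (26%). A match is a description of letters, and none of these data measured binding. The 4 matching promoters are shown first, with the core in capitals, in Rab5if at chr2:156862872-156863171 (plus strand), Ranbp17 at chr11:33513704-33514003 (minus), Sumf1 at chr6:108185534-108185833 (minus) and Hccs at chrX:169320323-169320622 (minus). The Edem1 promoter, at chr6:108828391-108828690 (plus), is given last because the gene leads the ranking. It held no ACGTG on either strand in this window. In Rab5if, Ranbp17 and Hccs the core is on the opposite strand and reads CACGT, and in Sumf1 both strands match in the palindrome CACGTG.
Rab5if promoter: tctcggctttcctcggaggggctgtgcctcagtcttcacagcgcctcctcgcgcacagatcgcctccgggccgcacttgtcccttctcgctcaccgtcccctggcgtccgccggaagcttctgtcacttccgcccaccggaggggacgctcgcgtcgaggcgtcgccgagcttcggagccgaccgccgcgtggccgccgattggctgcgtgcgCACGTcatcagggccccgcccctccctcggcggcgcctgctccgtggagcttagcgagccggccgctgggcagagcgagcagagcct
Ranbp17 promoter: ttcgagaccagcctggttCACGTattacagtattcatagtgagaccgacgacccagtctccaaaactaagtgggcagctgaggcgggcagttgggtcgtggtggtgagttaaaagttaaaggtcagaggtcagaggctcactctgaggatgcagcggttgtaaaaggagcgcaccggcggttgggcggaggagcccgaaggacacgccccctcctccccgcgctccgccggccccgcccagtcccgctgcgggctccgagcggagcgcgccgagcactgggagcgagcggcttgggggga
Sumf1 promoter: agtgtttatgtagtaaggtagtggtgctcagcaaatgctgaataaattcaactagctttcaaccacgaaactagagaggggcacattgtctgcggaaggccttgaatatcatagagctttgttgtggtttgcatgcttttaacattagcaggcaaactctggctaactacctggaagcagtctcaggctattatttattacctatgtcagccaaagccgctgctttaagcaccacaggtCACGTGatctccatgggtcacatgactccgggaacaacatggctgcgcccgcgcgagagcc
Hccs promoter: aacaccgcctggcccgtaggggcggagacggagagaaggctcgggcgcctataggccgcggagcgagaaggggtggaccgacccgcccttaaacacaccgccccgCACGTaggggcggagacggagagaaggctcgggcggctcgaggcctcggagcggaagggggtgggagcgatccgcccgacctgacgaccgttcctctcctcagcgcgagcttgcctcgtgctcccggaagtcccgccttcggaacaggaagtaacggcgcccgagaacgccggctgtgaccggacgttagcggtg
Edem1 promoter: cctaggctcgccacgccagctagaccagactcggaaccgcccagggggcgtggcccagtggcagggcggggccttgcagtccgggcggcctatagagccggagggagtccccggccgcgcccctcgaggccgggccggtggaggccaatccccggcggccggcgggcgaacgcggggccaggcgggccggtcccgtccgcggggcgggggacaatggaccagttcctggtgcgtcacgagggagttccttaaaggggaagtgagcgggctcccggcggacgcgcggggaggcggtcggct

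The 12 leading positive genes had lower means in WT physioxia than in WT air, while their Tet2-deficient differences ran from -0.01 to 0.50. Their interactions were smaller, from 0.61 to 1.17. Of these, 5 fell in WT at an adjusted p under 0.05 (0.851% of all tested genes did), namely Slfn9, Inpp5f, Tmppe, Vps8 and Olr1. In Tet2-deficient cells 0 of 12 passed (0% of all tested genes). WT groups did not overlap for 8 of 12 (11% of all tested genes) and Tet2-deficient groups for 4 (3.75%). Nothing is read from any of these counts because the rule used these values. Of the WT physioxia libraries, replicate 2 was the lowest for 10 of the 12. The share of all tested genes lowest in that library was not calculated, so nothing is read from this count. Without it Inpp5f (adjusted p 0.0405) and Tmppe (0.039) still passed in WT, whereas Slfn9 (0.0719), Vps8 (0.0568) and Olr1 (0.11) did not.

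Spen, a large RNA-binding corepressor required for silencing of the inactive X chromosome, led this direction (chr4:141467890-141538597, minus strand). Its normalized counts were 333, 293, 407 and 315 in WT air and 261, 125, 238 and 244 in WT physioxia. In Tet2-deficient cells they were 198, 254, 273 and 223 in air and 298, 327, 361 and 344 in physioxia. The libraries did not overlap between oxygen levels in either genotype, and the order was opposite. Physioxia minus air was -0.68 ± 0.21 for WT (adjusted p 0.0669) and 0.50 ± 0.21 for Tet2-deficient cells (unadjusted p 0.0282), for an interaction of 1.17 ± 0.29 (95% interval 0.56 to 1.79). Without WT physioxia replicate 2 it was 0.93. Phf2, a histone demethylase of the oxygen-using Jumonji family, had the same crossing order without overlap: 392 to 552 in WT air, 195 to 375 in WT physioxia, 274 to 339 in Tet2-deficient air and 356 to 450.5 in Tet2-deficient physioxia. Its interaction was 0.85 ± 0.27, and 0.62 without that library.

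Inpp5f, a phosphoinositide phosphatase of endosomes, fell from 308, 338, 416 and 375 normalized counts in WT air to 205, 212, 235 and 276 in WT physioxia. Its Tet2-deficient values were 412, 446, 530.4 and 446 in air and 438, 504, 468 and 464 in physioxia, so the physioxia range lay inside the air range. The WT fall was -0.63 ± 0.13 (adjusted p 0.0149) and the interaction 0.66 ± 0.19. Vps8, a subunit of the endosomal tethering complex CORVET, had an interaction of 0.61 ± 0.19. Vps13b, a lipid transfer protein, also gave 0.61 ± 0.19, and its Tet2-deficient libraries did not overlap (754 to 942 in air, 989 to 1087 in physioxia).

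Olr1 and Slfn9 also differed widely between genotypes in both air and physioxia, and Tmppe mainly in physioxia. Tmppe, a membrane protein with a metallophosphoesterase domain, was at 192, 195, 315 and 162 in WT air and 129, 83.9, 67.1 and 118 in WT physioxia, and its Tet2-deficient means were 259 ± 11.4 in air and 259 ± 44.3 in physioxia. The WT fall was -1.11 ± 0.23, the Tet2-deficient difference -0.01 ± 0.23 and the interaction 1.10 ± 0.32. Olr1, the receptor for oxidised low-density lipoprotein, was at 409 to 532 in WT air and 159 to 403 in WT physioxia but at 73.6 to 116 and 77.4 to 139 in the Tet2-deficient groups, with an interaction of 1.10 ± 0.35. Slfn9, a schlafen family member, was at 276, 327, 338 and 287 in WT air and 259.6, 157, 183 and 197 in WT physioxia, against 591 to 679 and 619 to 862 in Tet2-deficient air and physioxia. Its interaction was 0.80 ± 0.22. The other 4 genes, Neurl4, Ccdc6, Zfp318 and Scrib, had interactions from 0.68 to 1.04.

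**Figure D3:**
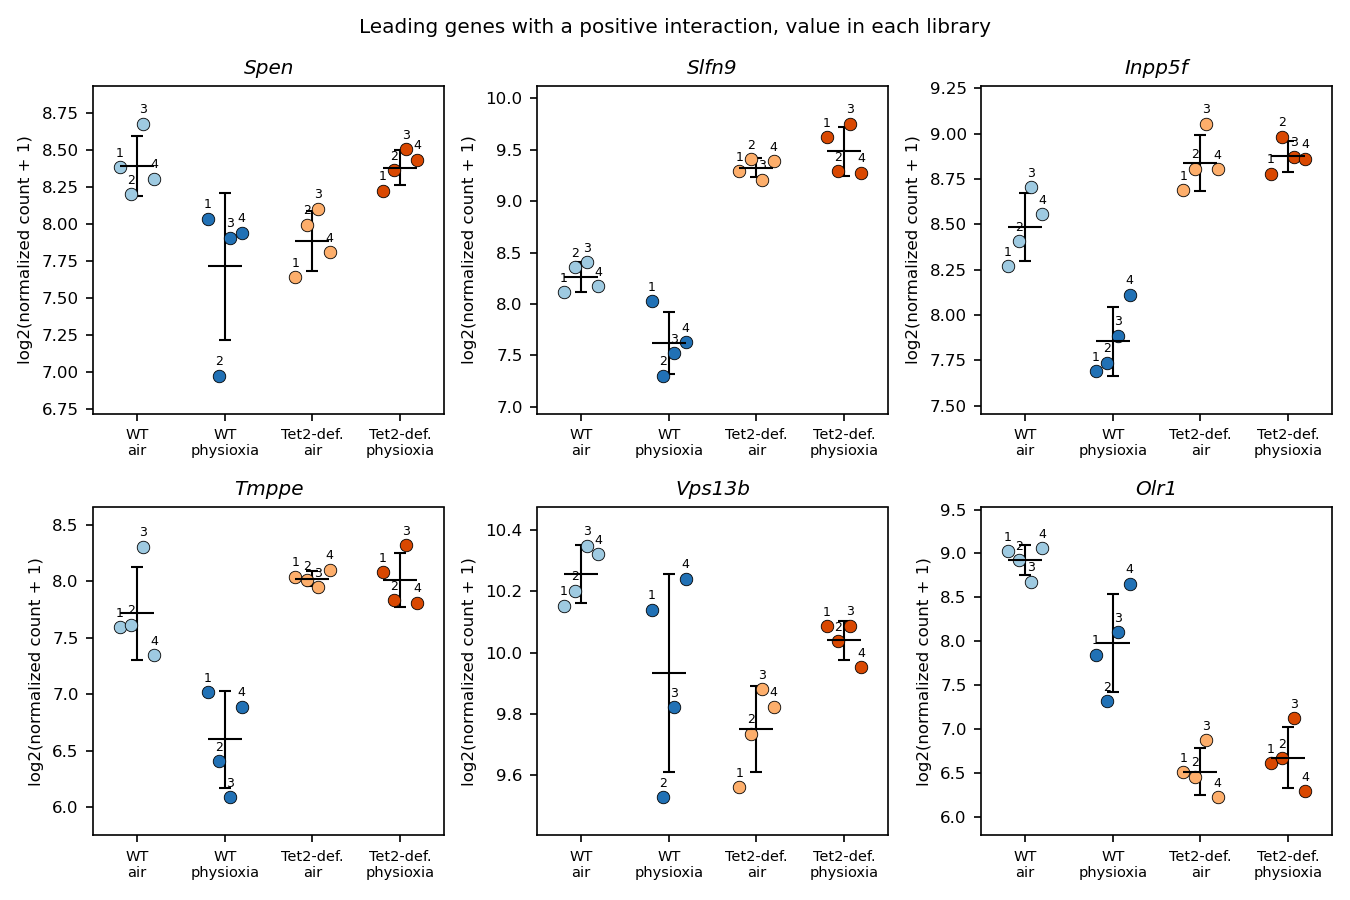
Log2(normalized count + 1) in each library (points, with replicate numbers) for 6 genes with a positive interaction; bars are the group mean and SD of 4 libraries. WT physioxia replicate 2 is the lowest WT physioxia library for Spen, Slfn9, Vps13b and Olr1, and Spen and Vps13b are higher in all Tet2-deficient physioxia libraries than in air.

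One gene illustrated a like difference in both genotypes, and it was named after its values were seen. Sgk1, a serum- and glucocorticoid-induced kinase, was at 482, 436, 376 and 306 normalized counts in WT air and 329, 224, 192 and 201 in WT physioxia. In Tet2-deficient cells it was at 457, 339.5, 343 and 349 in air and 222, 159.9, 155 and 186 in physioxia, with no overlap, whereas the WT groups overlapped. It fell in WT (-0.77 ± 0.20, adjusted p 0.0302; -0.75 and 0.0719 without WT physioxia replicate 2), and the Tet2-deficient difference was -1.04 ± 0.20 (adjusted p 0.194 in limma, 0.00119 in DESeq2). The interaction was -0.27 with a 95% interval from -0.86 to 0.31.

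Canonical HIF targets did not pass the interaction test, and no oxygen difference was called for them in either genotype. Of 56 listed HIF target and glycolysis genes, 26 were tested, 0 had an unadjusted p under 0.05 (8.94% of all tested genes did; the member Kdm4b did without WT physioxia replicate 2), and the median interaction was 0.08 against -0.02 over all tested genes. Slc2a1, the glucose transporter GLUT1, had an interaction of 0.18 (95% interval -0.44 to 0.79), with group means of 1629 ± 150.3, 1603 ± 251, 972 ± 215 and 1095 ± 341 in WT air, WT physioxia, Tet2-deficient air and Tet2-deficient physioxia. Pdk1, the pyruvate dehydrogenase kinase, had -0.14 (-0.52 to 0.23). Hif1a had 0.16 (-0.32 to 0.65), and -0.03 without WT physioxia replicate 2. The intervals of Pdk1, Hif1a and Slc2a1 all lay within 1 log2 unit of 0. Physioxia minus air had a median of -0.06 over the 26 genes for each genotype, with 0 at an adjusted p under 0.05. The list therefore held no called oxygen response to compare, and an equal HIF response in the 2 genotypes is not shown. Listed genes outside these 26 were absent from the deposited genes.

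Among listed oxygen-using dioxygenases and DNA methylation genes 10 of 27 were tested. Of these 2 were positive at an unadjusted p under 0.05 (3.55% of all tested genes), Jmjd1c at 0.67 ± 0.28 and Tet1 at 0.58 ± 0.26. Phf2, described above, was not on this list and is not in its counts. For Jmjd1c the value was 0.45 (unadjusted p 0.0611) without WT physioxia replicate 2. Tet1, the TET2 paralogue, was at 341, 392, 372 and 390.3 normalized counts in WT air and 321, 155, 290 and 313 in WT physioxia, and at 582 to 753 and 622 to 748 in Tet2-deficient air and physioxia. WT physioxia replicate 2 was the low WT library, and without it the Tet1 interaction was 0.34 (unadjusted p 0.0423, and 0.043 with it). Kdm4b, a histone demethylase, had a value of -0.85 ± 0.45, and -1.12 (unadjusted p 0.0169) without that library.

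Of 28 tested AP-1 and immediate early genes, 9 were positive and 19 negative with a median of -0.24. Among them, Maff, a small bZIP factor, had an interaction of -1.36 ± 0.52 and Srf, the serum response factor, 0.75 ± 0.31. Egr1 and Fos, the best-known members, gave -0.37 (-1.42 to 0.68) and 0.20 (-0.67 to 1.07). In the heat shock and unfolded protein list, 11 of 21 were positive and 10 negative with a median of 0.04. Beside Edem1, Sel1l, an adaptor of the ubiquitin ligase that acts in the same degradation pathway, had a value of the opposite sign, 0.47 ± 0.17. In the antioxidant list, Gsr, glutathione reductase, rose in WT (1.10, adjusted p 0.026) and had an interaction of -0.91 ± 0.39; without WT physioxia replicate 2 the WT difference was 0.94 (adjusted p 0.0943) and the interaction -0.76. Gclm, a glutathione synthesis subunit, had -1.22 ± 0.54, and -0.97 without that library. The median of the 23 tested antioxidant genes was -0.20, and -0.01 without WT physioxia replicate 2. Of 16 p53 targets 8 were positive and 8 negative with a median of -0.03. The interaction was lowest for Plk3, at -1.46 ± 0.53, and ran from -1.69 to -1.04 with 1 library left out. Tet2-deficient air replicate 4 stood apart for Plk3 at 1023 normalized counts.

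Cytokine and adhesion genes did not pass either. Il6, an inflammatory cytokine, held 112, 91.6, 96.9 and 125 normalized counts in the WT air libraries and 135, 80.2, 94.4 and 124 in the WT physioxia libraries. Tet2-deficient cells held 24.6, 24.3, 10.01 and 21.2 in air and 13, 11.9, 9.51 and 14.6 in physioxia. Both Tet2-deficient groups were below every WT library, and within each genotype the oxygen groups overlapped. The interaction was -0.61 (95% interval -1.46 to 0.24). Vcam1, an adhesion molecule of macrophages and stroma, had 0.50 ± 0.22 (unadjusted p 0.0351). Over the TNF and NF-kB list 21 of 32 were positive and 11 negative with a median of 0.05. Of 29 interferon response genes 9 were positive and 20 negative, with a median of -0.14. Irgm1, an immunity-related GTPase, fell in WT (-1.22, adjusted p 0.0146) and had an interaction of 0.89 ± 0.37, and 0.64 without WT physioxia replicate 2.

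Of 28 long-term stem cell genes 6 were positive and 22 negative (all tested genes 48.2% positive), with a median of -0.16 and -0.16 without WT physioxia replicate 2. Cdkn1c, a cell cycle inhibitor of quiescent stem cells, rose in WT from a mean of 4.18 to 37.1 normalized counts (adjusted p 0.0169), and its interaction was -2.17 ± 0.87. Without WT physioxia replicate 2 the WT adjusted p of Cdkn1c was 0.0529 and its interaction -1.62. Kit had 0.33 (-0.21 to 0.87) and Procr, which encodes EPCR, -0.36 (-0.86 to 0.14). Of 39 erythroid genes 9 were positive and 30 negative with a median of -0.24, but -0.02 without WT physioxia replicate 2, where the summed erythroid markers were the highest of the WT libraries at 24332. Klf1, the erythroid master regulator, had -0.32 (-1.38 to 0.73). Lmo2 rose in WT (1.20, adjusted p 0.0223) with an interaction of -0.92 ± 0.40, but its WT adjusted p was 0.0673 without that library. Tal1, a partner of LMO2 in a transcription complex, had -1.16 ± 0.54.

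Of 16 megakaryocyte and platelet genes 4 were positive and 12 negative, with a median of -0.22 (-0.21 without WT physioxia replicate 2). Gp5, a platelet glycoprotein, rose in WT from a mean of 33.9 to 145 (adjusted p 0.0451) and had an interaction of -2.73 ± 0.82. Its Tet2-deficient means were 193 ± 158 (SD) in air and 87.8 ± 20.6 in physioxia, with a log2 difference of -0.65 ± 0.58 (SE). Without WT physioxia replicate 2 the WT adjusted p of Gp5 was 0.145 and its interaction -2.50. Mature neutrophil markers had near-equal oxygen medians in the 2 genotypes, 0.36 in WT and 0.39 in Tet2-deficient cells, and a median interaction of -0.17. T and NK cell markers had 6 positive and 22 negative values with a median of -0.26, and -0.10 without WT physioxia replicate 2. In the 12 tested G2/M genes the median was 0.11, with Cenpe, a mitotic motor, at 0.72 ± 0.32, and 0.51 without WT physioxia replicate 2. Medians of the other 10 lists ran from -0.19 for monocyte, macrophage and dendritic markers to 0.15 for cholesterol synthesis. None of the lists had a member past the adjusted threshold, and none was tested as a set.

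**Figure D4:**
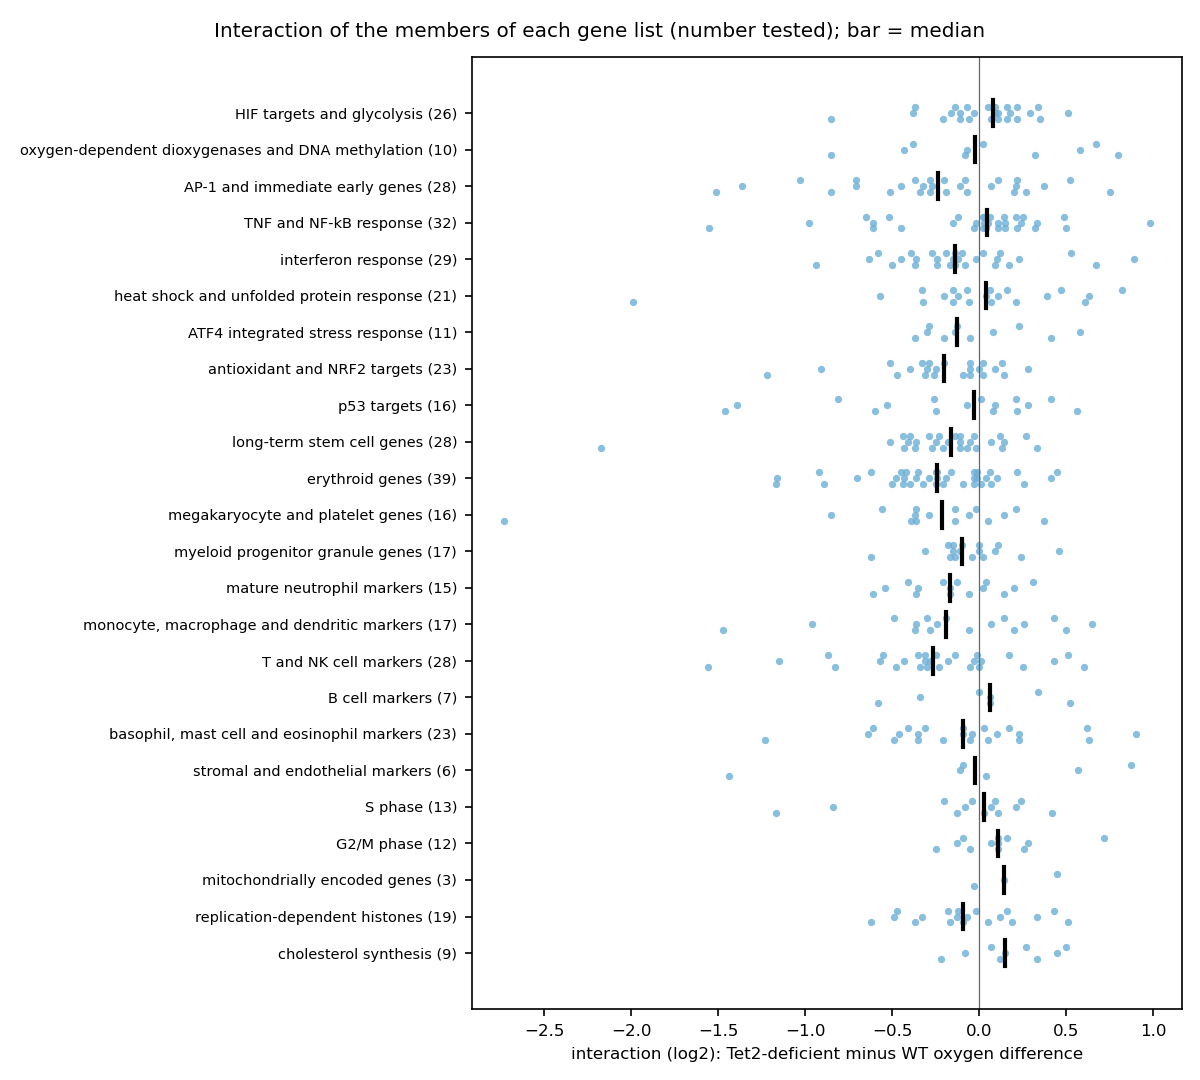
Interaction (log2) of each tested member (points) of 24 gene lists, with the number tested in brackets and the median as a black bar. Medians lie between -0.26 (T and NK cell markers) and 0.15 (cholesterol synthesis), and the points farthest from 0 are Gp5, Cdkn1c and Edem1 on the negative side.

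Interactions varied with transcript length. Over 5342 protein-coding genes the longest annotated transcript and the interaction had a Spearman correlation of 0.33, and 0.18 without WT physioxia replicate 2; it was 0.28 to 0.37 when any other library was left out. The median interaction ran from -0.18 in the shortest 20% of genes to 0.20 in the longest 20%, and from -0.06 to 0.09 without that library. In WT the correlation of length with the oxygen difference was -0.27, and -0.07 without it, and in Tet2-deficient cells it was 0.18. Genes with a positive interaction at an unadjusted p under 0.05 had a median transcript of 5424.5 bases, those with a negative one 2949, and all tested genes 3421.5. Among the leading genes the medians were 5502.5 for the positive and 3143.5 for the negative. The part of length in single interactions was not tested.

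**Figure D5:**
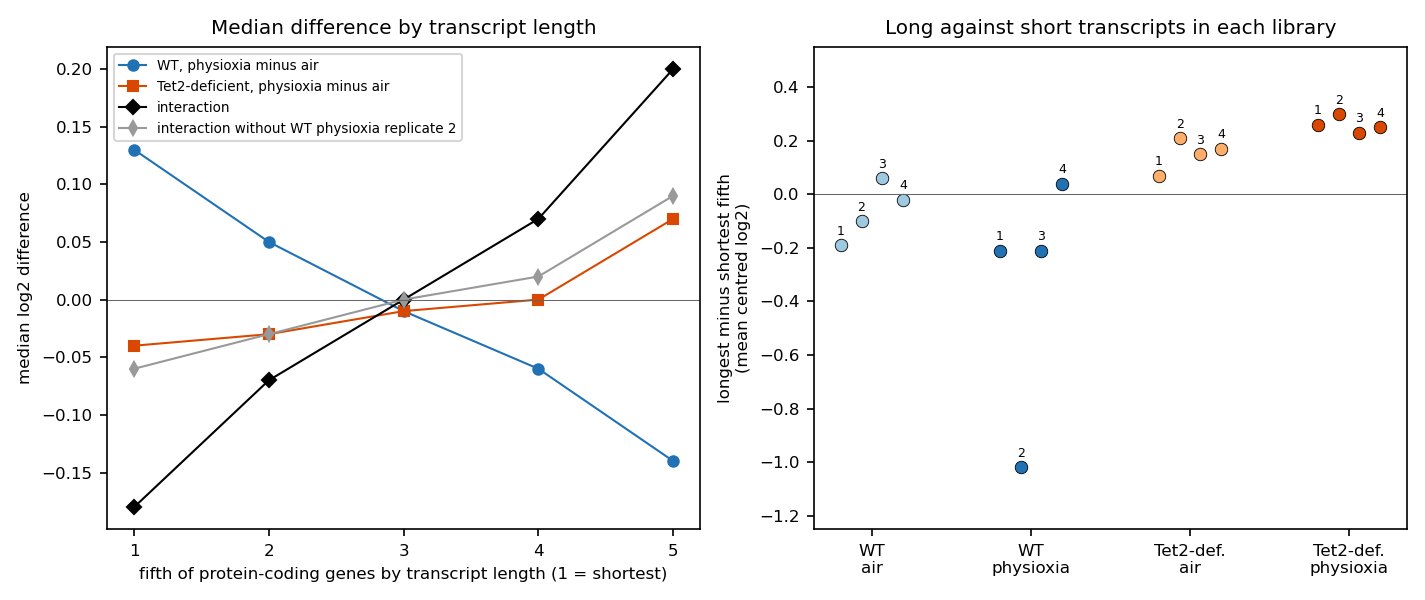
Left, median log2 difference in 5 equal bins of protein-coding genes by transcript length, for each genotype's oxygen difference and the interaction with and without WT physioxia replicate 2. Right, mean centred log2 level of the longest 20% minus the shortest 20% of transcripts in each library, where WT physioxia replicate 2 is at -1.02 and the 8 Tet2-deficient libraries lie between 0.07 and 0.30.

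DESeq2 on the recovered reads called 8 interactions, all negative. Edem1 (-2.15 ± 0.47, adjusted p 0.013), Pcgf6 (-2.10, 0.028), Rmi2 (-3.07, 0.0315) and Gp5 (-3.23, 0.0315) are described above, and the others were named after their values were seen. Cebpd, a C/EBP transcription factor of myeloid cells, was at 157, 206, 312 and 145 normalized counts in WT air and 1236, 1276, 699.6 and 341 in WT physioxia. Tet2-deficient cells held 337, 1166, 1129 and 1759 in air and 725, 733, 875 and 1041 in physioxia. Its limma interaction was -2.17 ± 0.65, its DESeq2 value -2.49 ± 0.60 (adjusted p 0.0315), and, as for Pcgf6, Tet2-deficient air held both extremes of that genotype. Selenoo, a mitochondrial selenoprotein, was called at -3.05 ± 0.76 (adjusted p 0.047), with 697 in Tet2-deficient air replicate 4 against 73.7 to 175 in the other 3 of that group. The unnamed locus 4933431K14Rik was called at -2.33 ± 0.58 (adjusted p 0.047). The immunoglobulin segment Igkv8-34 was called with a fitted value that has no bound, since all 4 Tet2-deficient physioxia libraries were at 0; its Tet2-deficient air values were 0, 0, 1 and 146. That gene turned sign without the library at 146, to 0.22 in limma.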

How the data were processed

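RNA was sequenced from 16 libraries of LSK-enriched marrow cells, 4 per group. The authors deposited 1 table titled as DESeq2 normalized counts, a signal whose values are, from the values themselves, reads per gene divided by 1 factor per library. FastQC, cutadapt, STAR, HTSeq, DESeq2 and the build GRCm38 are named in the submitters' processing notes, with no versions or roles; the annotation and strand setting are not given in the sources used here. The deposited values were whole multiples of 1 read for 100% of values within 0.01, so whole reads were recovered for the edgeR and DESeq2 alternatives. The deposited reads per library, 7.77 to 15.7 M, cover only the listed genes.

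A gene was tested where 4 or more libraries reached a normalized count of 10 (178 were left out). limma 3.58.1 with an intensity trend was fitted to log2(value + 1) over all 16 libraries in R 4.3.3, with 1 mean per group, two-sided, and p-values were Benjamini-Hochberg adjusted over the 6110 genes. A fold on this scale understates changes of low genes. Alternatives were edgeR 4.0.16, DESeq2 1.42.0, other pseudocounts, filters and scaling, a replicate block and each library left out. Nothing ties replicates to separate animals beyond the label of biological replicate, so p-values measure the spread between these samples. The main fit treated air and physioxia libraries as unpaired. Any spread shared through divided cells therefore stays in its SEs and p-values.

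Named genes were the 12 per direction with the smallest interaction p, with a mean of at least 50 over all libraries and 20 in each genotype, without immunoglobulin and T cell receptor segments and unnamed loci; 12 genes always named; and up to 4 members per list by p. Members and lists were chosen with earlier results of these data known. The deposited table gives Ensembl identifiers, of which 6278 of 6288 were matched to a symbol. Gene positions and transcript lengths are from GENCODE M21 (GRCm38). The result of 1 listed gene is not reported here.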

Additional observations from a re-analysis of the deposited data

Results flagged for a closer look

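In 368 groups of 4 libraries examined for the values above, 22 (5.98%) had 1 library standing far from the other 3, where chance flags about 1 in 20. WT physioxia replicate 2 was that library for the normalized total (14.5 M), for the share of the 10 most abundant genes (20.3%), and for low normalized counts of Spen (125), Phf2 (195), Tet1 (155) and Jmjd1c (1569), and the value was 461 for Kdm4b and 549.7 for Pdzk1ip1. Tet2-deficient air replicate 4 stood apart for Vcam1 (1229.9), Plk3 (1023), Igkv8-34 (146) and Ighv4-2 (24.5). Tet2-deficient air replicate 3 stood apart for Il6 (10.01), Sel1l (1333) and Phgdh (12618), replicate 2 for Egr1 (87495) and replicate 1 for Sgk1 (457). The others were Sel1l in Tet2-deficient physioxia replicate 3 (2131), Il5ra in Tet2-deficient physioxia replicate 2 (56.2) and WT air replicate 4 (188), Dntt in WT air replicate 3 (1528) and Ranbp17 in WT air replicate 1 (72.1).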

How the results depend on the processing

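Interaction calls were 0 under each alternative run except DESeq2, which gave 8, and ranged from 0 to 1 when 1 library was left out, the 1 being Kctd5 without WT air replicate 3; unadjusted numbers then ran from 389 to 879. WT calls were 539 with DESeq2 and 126 to 554 with 1 library left out: 151 without WT air replicate 2, 127 without air 4, 126, 165, 228 and 554 without physioxia 1, 2, 3 and 4. Tet2-deficient calls were 9 with DESeq2, 1 with a pseudocount of 5, 1 without the intensity trend (Ighv4-2 in both), and 0 to 1 with 1 library left out (Igkv12-38 without air 4). Of 2196 alternative values of 88 named genes, 2179 kept their direction and side of the threshold, 9 came to pass it and 8 turned sign. With 1 library left out, Tet2 ran from -0.08 to 0.14 (6 of the 8), Hif1a from -0.03 (without WT physioxia 2) to 0.27 and Igkv8-34 from -2.55 to 0.22 (without Tet2-deficient air 4). The causes were not tested.

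With each replicate number within a genotype as a block, interaction calls were 0 (668 at an unadjusted p under 0.05), WT calls 462 and Tet2-deficient calls 0. Same-numbered WT libraries deviated together (correlations 0.33, 0.18, 0.16 and 0.33), and each correlated best with its own number. In Tet2-deficient cells the values were 0.32, -0.27, 0.04 and -0.01, so the numbers were not taken as pairs. The highest Tet2-deficient value, 0.50, was between air replicate 3 and physioxia replicate 2. A block by number does not capture a match under other numbers, and such matches were not tested. With 4 libraries a group the median gene's interaction had a 95% half-width of 0.64.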
